A study of Homo sapiens with 6 samples.

Results

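NRAS, HRAS, SOS1, BRAF, MAP2K1, MAP2K2 and MAPK3 encode core components of the RAS-MAPK cascade. These 7 genes were taken as a given list and were found by symbol and Ensembl identifier, 7 of the 57905 genes in the count table, and all 7 passed the filter on low counts that left 16622 genes to test. NALM6 is a human leukemia cell line with the features of B cell precursors. THZ1 binds covalently to CDK7, a kinase that acts in transcription and in the cell cycle, and inhibits it. RNA-SEQ libraries were made from NALM6 cells that had been kept for 24 h with the solvent DMSO (3 libraries) or with 500 nM of THZ1 (3 libraries). All libraries come from 1 cell line, and no genetic change was introduced in either group.

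In the RAS-MAPK cascade, an activated receptor recruits the exchange factor SOS1 through adaptor proteins, and SOS1 loads the RAS proteins with GTP. GTP-bound RAS activates the RAF kinases, which phosphorylate the MEK kinases, which in turn phosphorylate the ERK kinases and through them transcription factors and other kinases. The pathway drives proliferation and survival, and mutations that activate it, in NRAS among others, are frequent in B cell precursor leukemia.

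The DMSO-treated libraries held 11015480 to 11164840 counts and the THZ1-treated libraries 7876402 to 8314306. Expression is given as CPM (counts relative to library size) after TMM scaling, with the mean ± SD of each treatment's 3 libraries, and differences as log2 fold changes of THZ1 over DMSO with the standard error (SE). Higher and lower, or rose and fell, therefore refer to a gene's scaled share of the counts. The amount of RNA per cell was not measured. A gene was called at an adjusted p-value below 0.05, from the quasi-likelihood test of edgeR, adjusted by Benjamini-Hochberg over the genes tested. The labels do not say whether replicates came from separate cultures, so p-values measure only the spread between these libraries. All 12 markers of precursor B cells, such as PAX5, were above a floor of 3 counts in every library, and their summed level was 4133 to 4269 CPM with DMSO and 2192 to 2257 CPM with THZ1. The summed myeloid markers went from 3.88-4.63 to 18.9-20.5 CPM, the erythroid from 0.164-0.253 to 2.94-3.81 CPM, the fibroblast and epithelial from 3.20-4.47 to 15.7-16.1 CPM and the T cell markers from 0-0.169 to 0.401-0.969 CPM. In those groups, 5 of 6, 1 of 4, 1 of 4 and 1 of 5 listed markers in the table passed the floor in any library. The part of these markers in the results was not tested. In bulk RNA, fewer cells of a type and less RNA per cell cannot be told apart.

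The transcription start regions are shown for the RAS and MEK paralog pairs, since the balance of counts within each pair differed between treatments. The sequences are the 250 bases before the RefSeq start, 5′ to 3′ on the strand of the gene, and were found at a single place in GRCh37. They lie at chr1:115259393-115259642 (minus strand) for NRAS, chr11:535577-535826 (minus strand) for HRAS, chr15:66679000-66679249 (plus strand) for MAP2K1 and chr19:4124120-4124369 (minus strand) for MAP2K2. Capitals mark GC boxes, searched as GGGCGG on both strands and so also read as CCGCCC.
NRAS: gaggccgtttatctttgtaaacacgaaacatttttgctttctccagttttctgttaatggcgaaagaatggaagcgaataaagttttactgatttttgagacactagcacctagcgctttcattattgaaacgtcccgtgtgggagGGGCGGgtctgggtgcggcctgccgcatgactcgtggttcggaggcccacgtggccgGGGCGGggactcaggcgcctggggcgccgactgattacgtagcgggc
HRAS: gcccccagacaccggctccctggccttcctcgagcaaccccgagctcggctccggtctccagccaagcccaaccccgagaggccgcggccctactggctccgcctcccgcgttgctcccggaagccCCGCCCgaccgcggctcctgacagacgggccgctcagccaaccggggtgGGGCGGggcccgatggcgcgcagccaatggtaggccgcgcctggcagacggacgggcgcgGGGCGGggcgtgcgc
MAP2K1: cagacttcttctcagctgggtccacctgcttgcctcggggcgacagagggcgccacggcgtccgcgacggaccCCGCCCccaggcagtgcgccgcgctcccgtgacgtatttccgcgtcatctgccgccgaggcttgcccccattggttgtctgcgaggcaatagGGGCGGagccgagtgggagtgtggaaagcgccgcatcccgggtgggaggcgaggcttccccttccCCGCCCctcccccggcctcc
MAP2K2: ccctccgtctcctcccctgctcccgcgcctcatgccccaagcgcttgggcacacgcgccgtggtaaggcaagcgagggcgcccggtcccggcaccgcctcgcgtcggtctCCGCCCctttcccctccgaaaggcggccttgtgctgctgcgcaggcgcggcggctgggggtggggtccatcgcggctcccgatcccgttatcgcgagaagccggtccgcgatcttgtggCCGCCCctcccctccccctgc
The NRAS window held 2 GC boxes and the HRAS window 3, and the MAP2K1 window held 3 and the MAP2K2 window 2. GC content was 54.4% for NRAS against 77.2% for HRAS, but 71.2% for MAP2K1 against 74.0% for MAP2K2. Among the other members, the window of MAPK3 held 6 GC boxes, that of SOS1 held 1 and that of BRAF held 0. A GC box was present in 42.2% of 27326 RefSeq promoter windows of this length, whose median GC content was 57.6%. None of the 7 windows held the letters TATAAA, which 11.2% of all windows held. These matches describe the letters only. The windows of HRAS, BRAF and MAPK3 lie inside the annotated spans of these genes, which reach further upstream than the RefSeq start used. The MAP2K1 window reaches past the annotated start of MAP2K1, and the SOS1 window lies upstream of the annotated start of SOS1 without touching it.

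Of the 7 members, 2 were higher and 4 lower with THZ1, and BRAF was not called. Over all genes tested, 84.5% were called, 43.5% higher and 41.1% lower, so the 6 of 7 members called lie near this background. The libraries of both treatments did not overlap for the same 6 members, against 84.7% of all genes. No member passed a log2 fold change of 1.5 in size at that adjusted p, a threshold that 37.5% of all genes passed, 24.6% higher and 12.9% lower, although HRAS passed it without DMSO replicate 3 (1.55) and with upper quartile factors (1.61). With TMM, the median log2 fold change of the members was -0.19, against 0.03 over all genes tested. With upper quartile factors the median of the members was 0.00, but these factors shifted the values of all genes by a median of 0.19. HRAS had the largest fold in the count fit and MAP2K2 the largest decrease.

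**Figure D1:**
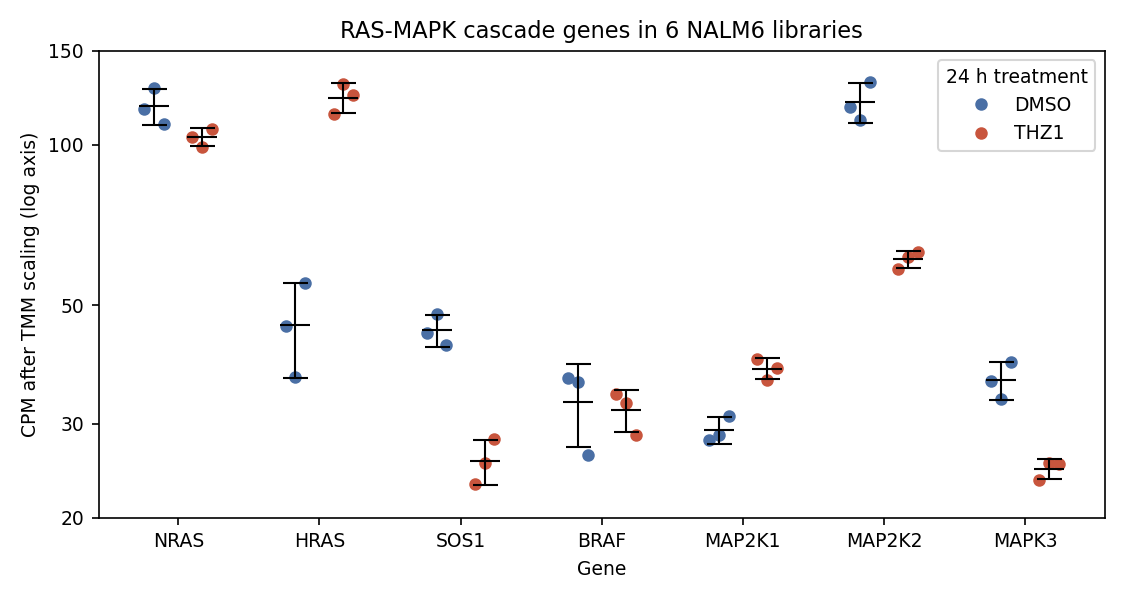
The plot gives CPM after TMM scaling (log axis) of the 7 cascade genes in each library, with points for single libraries and black bars for the mean and SD of 3 libraries. HRAS lies at 36.6 to 55.2 CPM with DMSO and 114.0 to 129.7 CPM with THZ1, while the points of BRAF overlap.

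NRAS and HRAS encode RAS GTPases, the switch proteins that pass the signal from receptors to the RAF kinases. NRAS (ENSG00000213281, chr1:115247090-115259392, minus strand) had 116.6, 127.9 and 109.5 CPM in the DMSO-treated and 103.6, 99.1 and 107.1 CPM in the THZ1-treated libraries. Each THZ1-treated library was below every DMSO-treated library, although the lowest DMSO-treated value lay close to the highest THZ1-treated value. NRAS went from 118.0 ± 9.29 to 103.3 ± 3.996 CPM, a log2 fold change of -0.19 (SE 0.08) with an adjusted p of 0.0204 by edgeR, and with upper quartile factors the log2 fold change was 0.00. This call was lost with RLE factors (adjusted p = 0.128), with DESeq2 (adjusted p = 0.0628) and without THZ1 replicate 2 (adjusted p = 0.0765, edgeR).

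HRAS (ENSG00000174775, chr11:532242-537321, minus strand) had 45.8, 36.6 and 55.2 CPM with DMSO. With THZ1 it had 114.0, 129.7 and 123.7 CPM. The groups were far apart, and the DMSO-treated libraries differed more among themselves, replicate 2 being lowest and replicate 3 highest. HRAS rose 2.67-fold, from 45.9 ± 9.28 to 122.5 ± 7.92 CPM, a log2 fold change of 1.42 (SE 0.10) with an adjusted p of 2.1e-14 by edgeR. The log2 fold change was 0.27 (adjusted p = 0.00179) when offsets for transcript GC content and length were put into the edgeR fit, an alternative chosen after seeing the data. The median transcript of HRAS has a GC content of 64.5% and that of NRAS 37.4%.

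The balance between NRAS and HRAS was also measured inside each library, where scaling has no part. NRAS had 2.55, 3.49 and 1.99 times the counts of HRAS with DMSO and 0.909, 0.764 and 0.866 times with THZ1. NRAS therefore led in counts in every DMSO-treated library and HRAS in every THZ1-treated library. Such a ratio is free of scaling, but not of differences tied to GC content or length. With the GC and length offsets in the edgeR fit, the log2 fold changes were 0.15 for NRAS and 0.27 for HRAS. The log2 ratio went from 1.38 ± 0.41 to -0.24 ± 0.13 (difference -1.62, two-sided exact permutation test, p = 0.1, adjusted p = 0.15 over 6 ratios, of which 4 are given). The smallest p that an exact permutation test of 3 libraries against 3 can give is 0.1.

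Per length, in the deposited FPKM, NRAS and HRAS can be set side by side. HRAS made up 46.8% ± 7.30 of the summed FPKM of the pair with DMSO and 72.4% ± 1.72 with THZ1. No adjustment for GC content was made to these shares here. In FPKM, HRAS and NRAS changed order, with 68.5 ± 12.5 and 77.4 ± 8.60 under DMSO and 160.7 ± 9.88 and 61.2 ± 2.41 under THZ1. With DMSO these 2 levels differed by less than their spread. The summed FPKM of the pair was 145.8 ± 4.002 with DMSO and 221.9 ± 9.10 with THZ1.

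SOS1 (ENSG00000115904, chr2:39189347-39351486, minus strand) encodes the exchange factor that charges RAS with GTP. It had 44.3, 48.2 and 42.2 CPM in the DMSO-treated and 23.1, 25.3 and 28.1 CPM in the THZ1-treated libraries. All THZ1-treated libraries were well below all DMSO-treated libraries. SOS1 fell from 44.9 ± 3.04 to 25.5 ± 2.47 CPM, a log2 fold change of -0.82 (SE 0.10) with an adjusted p of 1.2e-08 by edgeR. With the GC and length offsets the log2 fold change was -0.11 (adjusted p = 0.27, edgeR), and the median transcript GC content of SOS1 is 38.2%. The log2 ratio of SOS1 to its paralog SOS2 within a library went from 0.63 ± 0.11 to 0.30 ± 0.16 (exact permutation test, p = 0.1, adjusted p = 0.15). SOS1 made up 53.4% ± 1.38 of the summed deposited FPKM of this pair with DMSO and 47.4% ± 3.37 with THZ1, and 31.9% ± 1.62 and 27.1% ± 2.10 in FPKM made from the counts and exon lengths. Genes that overlap SOS1 had at most 3 counts in any library, except the intronic RNA SOS1-IT1 on the same strand, which had up to 23.

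BRAF (ENSG00000157764, chr7:140419127-140624729, minus strand) encodes a RAF kinase, the first kinase of the cascade. Its levels were 36.6, 36.0 and 26.2 CPM in the DMSO-treated and 34.2, 32.8 and 28.6 CPM in the THZ1-treated libraries. The groups overlapped, and DMSO replicate 3 was the lowest of all 6 libraries. Its log2 fold change of -0.05 had a standard error of 0.12 (adjusted p = 0.698, edgeR), and its sign turned with RLE factors (0.02) and upper quartile factors (0.14). With library sizes alone it was -0.30 (adjusted p = 0.0253, edgeR), and with the GC and length offsets 0.47 (adjusted p = 8.67e-05, edgeR).

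The deposited FPKM gave another picture for BRAF, with 4.83 ± 0.576 FPKM under DMSO and 2.37 ± 0.232 FPKM under THZ1. On the log2(FPKM + 1) scale the difference was -0.79 (adjusted p = 0.00163, limma), whereas the counts showed none past the threshold. NDUFB2, on the opposite strand, overlaps BRAF over 3464 bases and went from 67.2 to 52.9 CPM. The part of the overlap in the unlike values was not tested. The log2 ratio of the counts of BRAF to those of ARAF went from -0.82 ± 0.24 to -0.11 ± 0.28 without overlap (exact permutation test, p = 0.1, adjusted p = 0.15), while in the deposited FPKM this log2 ratio changed by -0.17.

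MAP2K1 and MAP2K2 encode MEK1 and MEK2, the kinases that RAF activates and that phosphorylate ERK. MAP2K1 (ENSG00000169032, chr15:66679175-66783994, plus strand) had 27.9, 28.6 and 31.1 CPM in the DMSO-treated and 39.7, 36.3 and 38.2 CPM in the THZ1-treated libraries. Every THZ1-treated library was above every DMSO-treated library. MAP2K1 rose from 29.2 ± 1.64 to 38.1 ± 1.73 CPM, a log2 fold change of 0.38 (SE 0.10) with an adjusted p of 0.000677 by edgeR, a call that was lost with library sizes alone (0.14, adjusted p = 0.195). SNAPC5, which overlaps MAP2K1 on the opposite strand over 1522 bases, went from 15.4 to 37.1 CPM, and its part in the MAP2K1 counts was not tested. The opposite-strand RNA ENSG00000261351 went from 1.14 to 4.59 CPM.

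MAP2K2 (ENSG00000126934, chr19:4090319-4124119, minus strand) moved the other way. It had 117.5, 111.2 and 131.3 CPM in the DMSO-treated and 58.4, 61.7 and 62.8 CPM in the THZ1-treated libraries. The groups were widely separated and the THZ1-treated libraries lay close together. MAP2K2 fell from 120.0 ± 10.3 to 61.0 ± 2.32 CPM, a log2 fold change of -0.98 (SE 0.08) with an adjusted p of 1.4e-12 by edgeR. No annotated gene overlaps MAP2K2 or NRAS.

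The MEK pair was measured within each library as well. The count ratio of MAP2K1 to MAP2K2 was 0.238, 0.257 and 0.237 with DMSO and 0.680, 0.587 and 0.609 with THZ1. The ratio was higher in every THZ1-treated library, and MAP2K2 kept more counts than MAP2K1 in all 6 libraries. The log2 ratio went from -2.04 ± 0.07 to -0.68 ± 0.11 (difference 1.36, exact permutation test, p = 0.1, adjusted p = 0.15 over 6 ratios). Per length, MAP2K1 accounted for 25.4% ± 0.417 of the summed FPKM of the MEK genes with DMSO and 46.4% ± 2.06 with THZ1. The summed FPKM of the pair was 86.3 ± 5.06 with DMSO and 56.5 ± 1.45 with THZ1.

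MAPK3 (ENSG00000102882, chr16:30125426-30134827, minus strand) encodes ERK1, a kinase at the end of the cascade that phosphorylates many substrates. MAPK3 had 36.1, 33.4 and 39.2 CPM in the DMSO-treated and 23.5, 25.3 and 25.3 CPM in the THZ1-treated libraries. The THZ1-treated libraries all lay below the DMSO-treated libraries. MAPK3 fell from 36.2 ± 2.95 to 24.7 ± 1.02 CPM, a log2 fold change of -0.55 (SE 0.10) with an adjusted p of 1.6e-05 by edgeR. No annotated gene overlaps it.

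**Figure D2:**
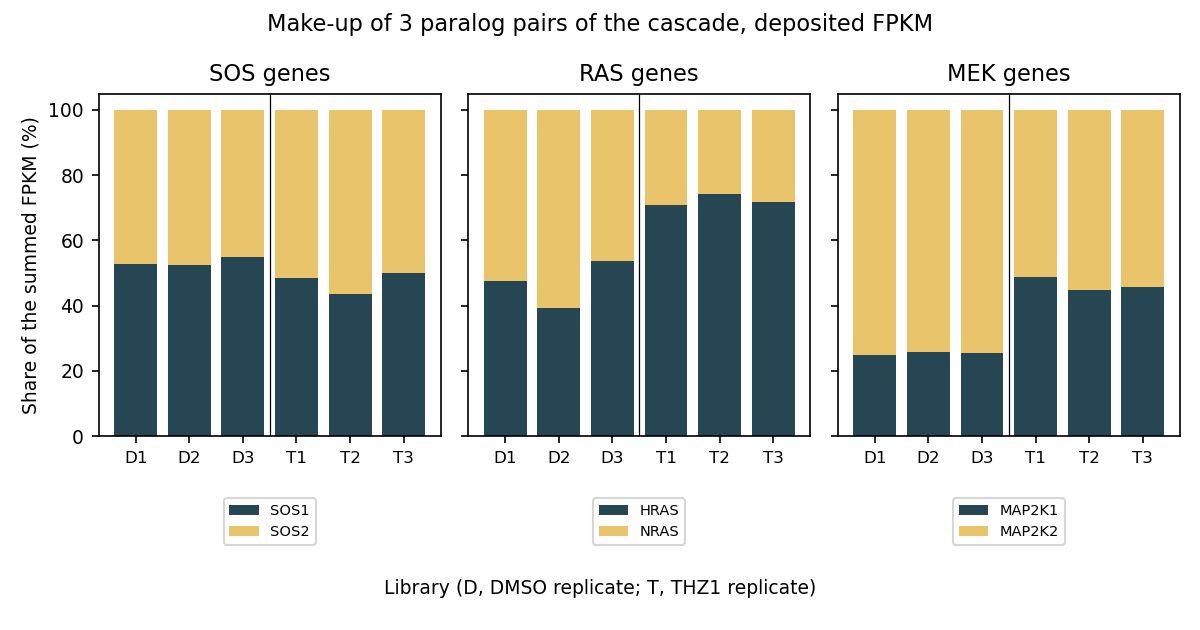
Each bar is 1 library, and its colours give the share (%) of each gene in the summed deposited FPKM of its paralog pair. The HRAS share is 39.2% to 53.8% with DMSO and 71.0% to 74.3% with THZ1, the MAP2K1 share 24.9% to 25.8% and 44.8% to 48.7%, and the SOS1 share 52.4% to 55.0% and 43.6% to 50.1%.

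In deposited FPKM, the order of the members under DMSO was NRAS, HRAS, MAP2K2, MAPK3, MAP2K1, SOS1 and BRAF. NRAS, HRAS and MAP2K2, at 77.4, 68.5 and 64.4 FPKM, had neighbours within their SDs. MAPK3 with 27.6 ± 2.15, MAP2K1 with 21.9 ± 1.31, SOS1 with 14 ± 0.737 and BRAF with 4.83 ± 0.576 FPKM lay further apart than their SDs. Under THZ1, HRAS came first with 160.7 ± 9.88 FPKM, followed by NRAS with 61.2 ± 2.41, MAP2K2 with 30.3 ± 1.28 and MAP2K1 with 26.2 ± 1.44 FPKM. MAP2K1 stood above MAPK3 (16.9 ± 0.761 FPKM) under THZ1 and below it under DMSO. SOS1 with 5.85 ± 0.749 and BRAF with 2.37 ± 0.232 FPKM were lowest under both treatments. FPKM made from the counts and exon lengths were lower for all members, with MAP2K1 below MAPK3 under THZ1 too (5.39 and 6.16) and BRAF above SOS1 there (1.24 and 1.02).

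The GC content of transcripts moved with the fold changes over all genes. In 5 equal groups of genes ordered by GC content, the median log2 fold change was -0.51, -0.30, -0.00, 0.31 and 0.85. NRAS, SOS1 and BRAF are in the group with the lowest GC content, MAP2K1 in the middle group, and HRAS, MAP2K2 and MAPK3 in the group with the highest. MAP2K2 and MAPK3 fell although the median of their group was above 0. Among the DMSO-treated libraries, replicates 2 and 3 deviated from the group mean by a median of -0.08 and 0.07 on the log2 scale in the group with the highest GC content and by 0.05 and -0.05 in that with the lowest. HRAS deviated by -0.30 and 0.29 and NRAS by 0.12 and -0.10 in these replicates. With the GC and length offsets, 4 members were called higher (NRAS, HRAS, BRAF and MAP2K1) and 2 lower (MAP2K2 and MAPK3). NRAS was then at 0.15 (adjusted p = 0.0478, edgeR), and MAP2K1, MAP2K2 and MAPK3 at 0.67, -1.13 and -0.86. Whether GC content has a part in the changes was not tested.

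**Figure D3:**
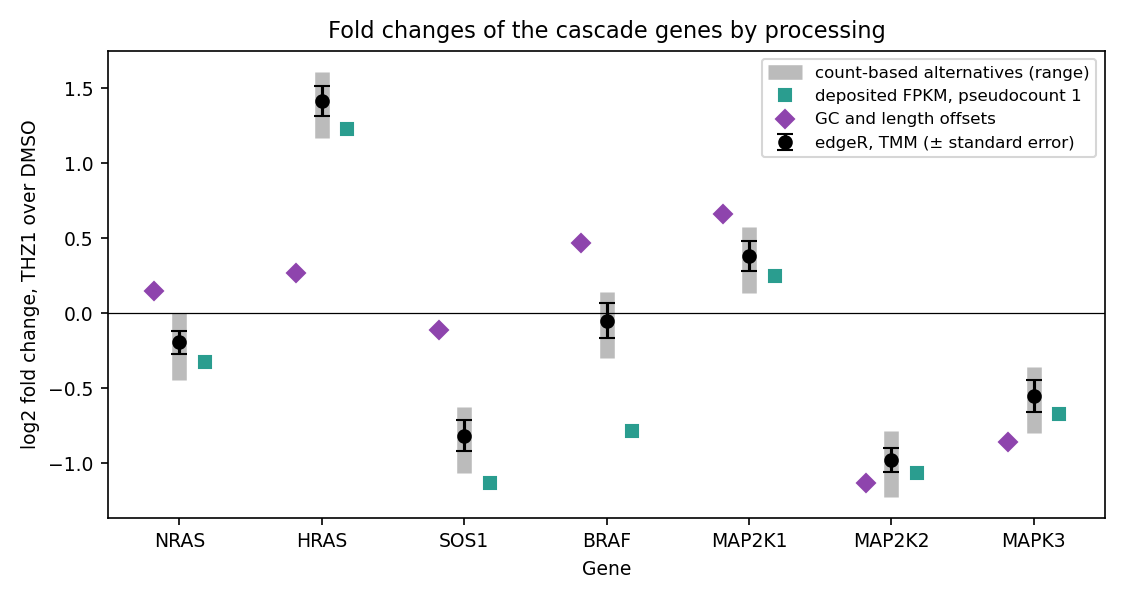
Log2 fold changes of THZ1 over DMSO are given for each member, with black points for edgeR with TMM and its standard error, grey bars for the range over the count-based alternatives, squares for limma on the deposited FPKM and diamonds for edgeR with GC and length offsets. MAP2K2 and MAPK3 stay below 0 and HRAS and MAP2K1 above 0 throughout, while HRAS drops from 1.42 to 0.27 with the offsets and BRAF lies on both sides of 0.

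Genes that act around the members were counted by role. Of the 66 other RAS-MAPK pathway genes that were tested, 26 were higher and 23 lower with THZ1, against 43.5% and 41.1% of all genes tested. Genes too low to test are not in these counts or in the counts by role. The filter could keep genes such as RASGRP4, SPRED3 and EPHA2 through their THZ1-treated libraries alone, and others through their DMSO-treated libraries alone. All of these are counted, so no median is stated. The relatives of RAS were split, with 2 of 6 higher and 3 lower. RAP1B fell from 132.0 ± 4.06 to 30.6 ± 3.08 CPM (log2 fold change -2.11) and RAP1A, its close paralog, fell too (-1.69). RRAS2 fell (-1.09, and -0.50 with the GC and length offsets, under which RAP1B was at -1.51 and RAP1A at -1.02), while RRAS (1.38) and RIT1 (1.13) rose, though RRAS was at -0.37 with the GC and length offsets. MRAS had 0 counts in all libraries.

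RAS proteins need a lipid anchor to reach the membrane. Of 7 genes for the processing and transport of RAS, 1 was higher, 2 were lower and 4 were not called. Over all genes tested, 43.5% were higher and 41.1% lower. FNTA, a subunit of the farnesyltransferase that attaches the anchor, fell (log2 fold change -0.74), as did PDE6D, a carrier of farnesylated proteins (-0.71). GOLGA7, a partner of the palmitoyltransferase that modifies HRAS and NRAS, rose from 38.8 ± 2.35 to 72.0 ± 2.16 CPM (0.89, and 1.53 with the offsets).

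Among adaptors and exchange factors beside SOS1, 6 of 10 tested genes were higher and 4 lower (43.5% and 41.1% of all genes). Of the 13 listed, 3 were too low to test. The filter on low counts could keep RASGRP4, with 1, 12 and 6 counts under DMSO, through its THZ1-treated libraries alone, so no median is stated. RASGRP4, an exchange factor for RAS, rose from 0.524 ± 0.451 to 14.82 ± 1.30 CPM (log2 fold change 4.78, and 2.24 at the lowest over all alternatives). The adaptor SHC1 rose from 43.8 ± 1.99 to 135.2 ± 4.93 CPM (1.63). PTPN11, which encodes the phosphatase SHP2 that promotes RAS activation, fell from 201 ± 17.99 to 83.5 ± 4.92 CPM (-1.27), and the docking protein gene GAB1 fell from 110.9 ± 7.81 to 52.1 ± 5.21 CPM (-1.09). With the GC and length offsets PTPN11 was at -0.58 and GAB1 at -0.32, both still called.

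Of the negative regulators, GTPase-activating proteins and feedback inhibitors, 7 of 18 were higher and 6 lower, against 43.5% and 41.1% of all genes tested. The filter could keep SPRED3, with 5, 7 and 3 counts under DMSO, through its THZ1-treated libraries alone, so no median is stated. RASAL1 and RASA3, which switch RAS off by promoting GTP hydrolysis, fell from 83.2 ± 2.78 to 13.6 ± 1.09 CPM (-2.61) and from 48.6 ± 1.09 to 12.5 ± 1.74 CPM (-1.96). SPRY4 and SPRED3, feedback inhibitors of the pathway, rose from 1.36 ± 0.0681 to 16.9 ± 0.311 CPM (3.63) and from 0.413 ± 0.160 to 9.79 ± 1.19 CPM (4.52). Their lowest log2 fold changes over all alternatives were 1.53 and 1.19.

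Of the other RAF, ERK and scaffold genes, 3 of 9 were higher and 3 lower, against 43.5% and 41.1% of all genes tested. The RAF kinase gene ARAF fell from 57.3 ± 1.45 to 34.4 ± 3.53 CPM (-0.74). SHOC2, whose product helps to activate RAF, fell (-0.87), and the scaffold gene IQGAP1 (0.62) and PEBP1, an inhibitor of RAF signaling (0.30), rose. With the GC and length offsets, SHOC2 was at 0.11, PEBP1 at -0.44 and IQGAP1 at 1.24, and the call of PEBP1 was lost by library size alone (0.055) and in the deposited FPKM (0.025). The scaffold genes KSR1 (0.12), KSR2 (-0.79) and LAMTOR3 (0.04) were not called, and KSR1 (-0.12) and LAMTOR3 (-0.21) changed sign with library sizes alone. KSR2, with an adjusted p of 0.0503 by edgeR, was called lower with library sizes alone (-1.04), with no filter (-0.88) and without DMSO replicate 2 (-0.89), DMSO replicate 3 (-0.92) or THZ1 replicate 3 (-1.32). LAMTOR3 was called higher with the offsets (0.37), and KSR1 lower in the deposited FPKM (-0.89).

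Genes downstream of ERK were counted in 2 lists. Of 10 ERK substrates, 3 were higher and 4 lower, against 43.5% and 41.1% of all genes tested. MKNK2, a kinase of the translation factor eIF4E, rose from 149.9 ± 3.21 to 1634 ± 24.2 CPM (3.45, and 2.68 with the offsets), whereas its paralog MKNK1 fell from 30.6 ± 2.28 to 17.1 ± 2.26 CPM (-0.85). RPS6KA3, which encodes the ribosomal S6 kinase RSK2, fell from 52.2 ± 4.09 to 12.7 ± 1.99 CPM (-2.04, and -1.28 with the offsets). The transcription factor gene ELK3 rose (0.34), a call that was lost by library size alone (0.095) and in the deposited FPKM (0.17).

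In a list of 10 transcripts that depend on ERK activity in other cells, 6 were called higher and 1 lower, 1 was not called and 2 were too low to test, against 43.5% and 41.1% of all genes called higher and lower. SPRY2 and SPRY4, both called higher, are also counted among the feedback inhibitors above. The filter on low counts could keep EPHA2 and ETV4 through their THZ1-treated libraries alone. Both are among the genes called higher, so no median is given. PHLDA1 rose from 3.35 ± 0.252 to 34.0 ± 1.26 CPM (3.34, and 1.93 in the deposited FPKM) and SPRY2 from 32.7 ± 3.25 to 81.4 ± 9.62 CPM (1.32). EPHA2, a receptor tyrosine kinase gene, had 0 counts in all DMSO-treated libraries and 42, 31 and 29 counts with THZ1, at least 18.3-fold higher than a floor of 3 counts per library. In the deposited FPKM, which are approximate at such low levels, EPHA2 went from 0.262 to 1.83 (1.15 on the log2(FPKM + 1) scale). ETV4 (2.04) and DUSP4 (0.98) rose from 0.942 ± 0.339 and 2.52 ± 0.243 CPM, though in the deposited FPKM ETV4 was not called (0.25) and DUSP4 was at -0.49. DUSP6, an ERK phosphatase gene, had 68.0 ± 1.99 and 74.1 ± 4.90 CPM and was not called (0.12, adjusted p = 0.149, edgeR, and -0.12 with library sizes alone). It was called higher with RLE factors (0.19), upper quartile factors (0.32), a minimum of 10 counts per library (0.26) and the offsets (0.17). The transcription factor gene ETV5 fell from 24.5 ± 0.519 to 19.4 ± 2.07 CPM (-0.33), a call that was lost with upper quartile factors (-0.14), DESeq2 (-0.31), the minimum of 10 counts (-0.20) and the offsets (-0.059). CCND1, with 3 to 7 counts in each library, and EPHA4, with 6, 1 and 3 counts under DMSO and 0 under THZ1, were too low to test.

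**Figure D4:**
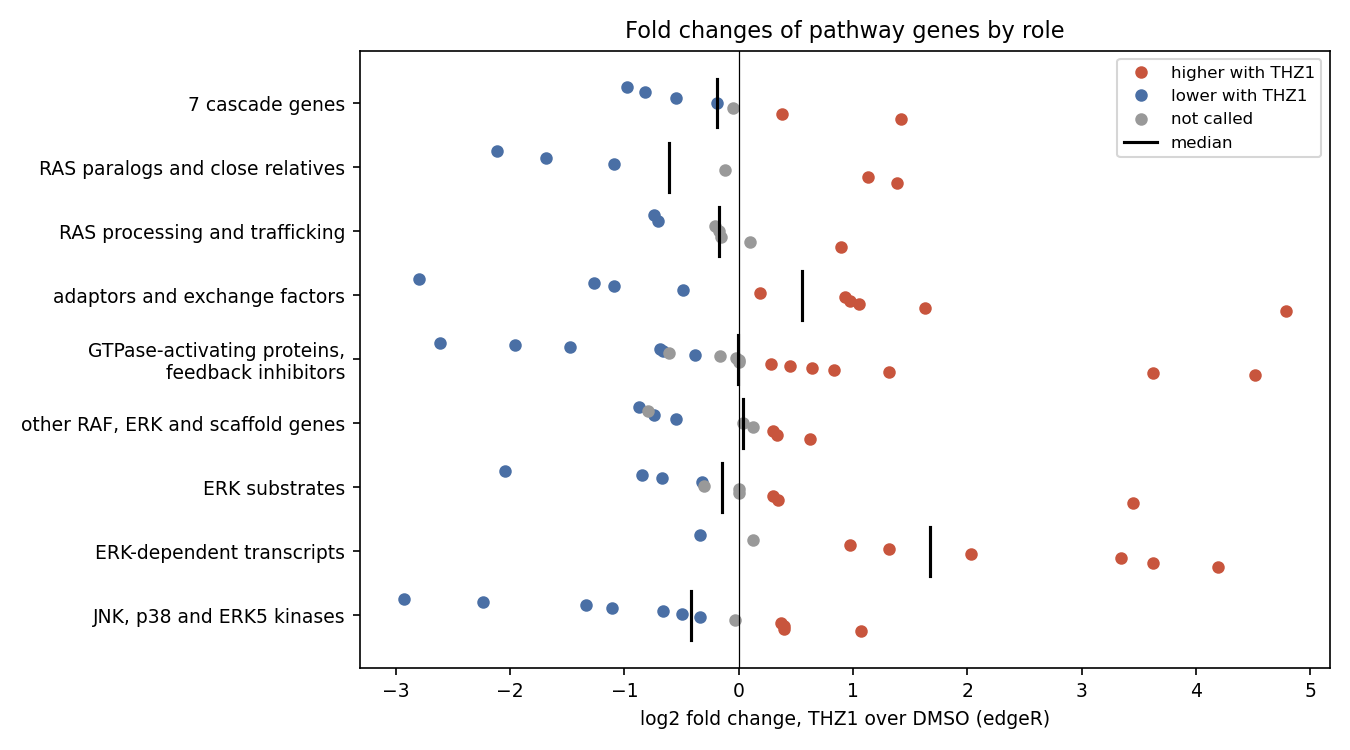
Each point is the log2 fold change of THZ1 over DMSO of 1 gene by edgeR, in rows by role, with colours for the call and a black line for the median, and with EPHA2 drawn at its lower bound. Medians are drawn for every row, also where the filter could keep genes through only their DMSO-treated or only their THZ1-treated libraries. The 7 cascade genes lie between -0.98 and 1.42, and each of the other roles with called genes has points on both sides of 0.

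The genes with the most similar profile over the 6 libraries were named for each member by the root mean square difference of centred log2 CPM. They were ZDHHC17 for NRAS (0.0176), SNAPC2 for HRAS (0.0490), FER for SOS1 (0.0207), HECTD4 for BRAF (0.0504), CDC73 for MAP2K1 (0.0289), RMND5B for MAP2K2 (0.0242) and ARHGDIB for MAPK3 (0.0180). Their log2 fold changes were -0.21, 1.44, -0.85, -0.06, 0.41, -0.94 and -0.56. None of these genes belongs to the lists above.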

How the data were processed

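The analysis used 6 RNA-SEQ libraries of NALM6 cells, 3 per treatment. According to the methods and the submitters' processing notes, which name cutadapt, STAR, HTSeq, RSEM and GRCh37, the authors filtered and mapped the reads and deposited raw counts per gene. Strand setting, annotation and counter version are not given in the sources used here. A second deposited table holds FPKM values for 16730 genes on a log2 scale, read from the values as log2(FPKM + 1) and taken back to FPKM. Genes with 0 counts under DMSO are not at 0 in it, so low FPKM are approximate. The authors' own fold changes, p-values and FDR in it were not used. No column of per-sample values was left out.

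Genes were filtered by filterByExpr with a minimum count of 10 and a minimum total of 15, and the counts were TMM-scaled and tested by the quasi-likelihood test of edgeR, adjusted by Benjamini-Hochberg. Tests are two-sided. CPM and ratios were made from the counts. A floor of 3 counts (at most 0.253 CPM with DMSO and 0.415 with THZ1) covers counting error only. The members and lists were chosen with earlier results of these data known. Named were all members, every gene of the lists of RAS relatives, of other RAF, ERK and scaffold genes and of ERK-dependent transcripts, the 2 highest and 2 lowest called genes with a mean of at least 5 CPM of each other list, the nearest profile of each member and overlapping genes. PAX5 was named besides as an example of a marker. Some results are not reported here.

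Alternatives were factors by RLE or upper quartile or none but library sizes, DESeq2, a minimum of 10 counts in each library or no minimum, a replicate block, the omission of each library, limma on the deposited FPKM with a pseudocount of 1 or 0.1 and with a mean FPKM of at least 1, and FPKM made from counts and exon lengths. Offsets fitted per library over 50 bins of GC content and length (16092 genes) were added after seeing the data. Coordinates, GC content and lengths are from GENCODE on GRCh37, and promoter sequences from RefSeq. The scripts were tested on simulated data. Tools were edgeR 4.0.16, DESeq2 1.42.0 and limma 3.58.1 in R 4.3.3, and pandas 2.3.3, scipy 1.17.1 and matplotlib 3.10.9 in Python 3.11.15.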

Additional observations from a re-analysis of the deposited data

How the results depend on the processing

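HRAS, MAP2K2 and MAPK3 kept their direction and call under all 17 alternatives, MAP2K1 and SOS1 under 16. Against TMM, the median log2 fold change of all genes shifted by 0.19 with upper quartile factors, -0.25 with library sizes alone, 0.13 with a minimum of 10 counts per library and -0.26 in the deposited FPKM, and by under 0.1 in size with the other alternatives except the pseudocount of 0.1 (-0.31).

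NRAS was at -0.12 with RLE factors, -0.17 with DESeq2 and -0.060 with a minimum of 10 counts per library, all uncalled, and turned to 0.0008 with upper quartile factors and 0.15 with GC and length offsets. SOS1 was at -0.11 with these offsets and MAP2K1 at 0.14 with library sizes alone, both uncalled. BRAF turned to 0.019 with RLE factors, 0.14 with upper quartile factors, 0.084 with that minimum and 0.47 with the offsets, and was called lower by library size (-0.30) and in the deposited FPKM (-0.79 with a pseudocount of 1 and with a mean of at least 1, -0.99 with a pseudocount of 0.1). With 1 library left out, NRAS ranged from -0.26 to -0.15, its call being lost without THZ1 replicate 2 (-0.18), and BRAF from -0.21 to 0.016, above 0 without DMSO replicate 1 (0.016) or THZ1 replicate 3 (0.013). The ranges were 1.26 to 1.55 for HRAS, -0.90 to -0.76 for SOS1, 0.34 to 0.41 for MAP2K1, -1.05 to -0.93 for MAP2K2 and -0.63 to -0.51 for MAPK3.

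The number of members called higher was 1 with library sizes alone and 4 with the offsets, and the number called lower was 2 with the offsets. Past a log2 fold change of 1.5, 1 member (HRAS) was higher with upper quartile factors, with that minimum and without DMSO replicate 3, so that leaving out 1 library gave 0 to 1. In the deposited FPKM the log2 ratio of BRAF to ARAF changed by -0.17. FPKM made from the counts and exon lengths (DMSO, then THZ1) were 29.7 and 21.8 for NRAS, 20.5 and 46.1 for HRAS, 2.13 and 1.02 for SOS1, 1.53 and 1.24 for BRAF, 4.91 and 5.39 for MAP2K1, 16.8 and 7.18 for MAP2K2 and 10.7 and 6.16 for MAPK3.

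Among other pathway genes, the offsets put RRAS at -0.37, SHOC2 at 0.11 and PEBP1 at -0.44. Library sizes alone put KSR1 at -0.12, LAMTOR3 at -0.21 and DUSP6 at -0.12. With 1 library left out, KSR1 ranged from -0.0051 (without DMSO replicate 1) to 0.32 and LAMTOR3 from -0.096 (without THZ1 replicate 2) to 0.094, and LAMTOR3 was at -0.051 with no filter. In the deposited FPKM (pseudocounts of 1 and 0.1), KSR1 was at -0.89 and -1.38, LAMTOR3 at -0.14 and -0.15 and DUSP4 at -0.49 and -0.87. The cause of these changes was not tested.

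Libraries of the same replicate number showed no shared pattern, as their deviations from the group means correlated by -0.004, 0.001 and 0.0206. This cannot show whether they were cultured or processed together. With the replicate block, 2 members were higher and 4 lower as without it, and NRAS was at -0.19 (adjusted p = 0.0239, edgeR). With 3 libraries a treatment, the values of NRAS and BRAF were smaller than the shifts between scalings.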

Other observations

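The parallel kinases of the JNK, p38 and ERK5 cascades were counted beside the RAS-MAPK genes. Of 13 listed genes 12 were tested, of which 4 were higher and 7 lower with THZ1, against 43.5% and 41.1% of all genes tested. The filter could keep a listed gene with 9, 7 and 9 counts under THZ1 through its DMSO-treated libraries alone, so no median is stated. MAPK9, which encodes JNK2, fell from 45.6 ± 0.774 to 9.69 ± 1.44 CPM (log2 fold change -2.23), and MAP2K4, which encodes a kinase that activates JNK, fell from 23.7 ± 1.94 to 9.36 ± 1.00 CPM (-1.34, and -0.66 with GC and length offsets). MAPK11, a p38 gene, rose from 5.34 ± 0.455 to 11.2 ± 2.38 CPM (1.07), a call that was lost with the offsets (0.14). MAPK7, the ERK5 gene, rose from 15.2 ± 1.61 to 19.99 ± 0.912 CPM (0.40), a call that was lost with library sizes alone (0.15), in the deposited FPKM (0.0038) and with the offsets (0.12). The adjusted p-values were 3.2e-17, 2.0e-10, 4.7e-06 and 0.00532 from the quasi-likelihood test of edgeR, adjusted by Benjamini-Hochberg.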
